A study of Mus musculus with 6 samples.

Results

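A set of 9 genes of reactive gliosis and of the glial cytoskeleton was followed in mouse hypothalamus: Gfap, Vim, Nes, Serpina3n, Cd44, Osmr, S1pr3, Steap4 and Srgn. They were taken by gene symbol, and all 9 were found among the 18228 genes of the count table, which gives symbols and no other identifier. The groups were aged mice, 22 months old, and young mice, 12 weeks old; 5 of each age underwent behavioural testing and 3 of each were then sequenced, with the aim of finding predictors of cognitive ageing. The labels name no strain, sex, genotype, drug or batch. All mice were anaesthetised with sodium pentobarbital before they were killed, so both groups share that exposure. Each library was one mouse, and libraries are named by age group and replicate number.

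Astrocytes that respond to injury, infection or age enlarge, add intermediate filaments and change their secreted and surface proteins, a state called reactive gliosis. Glial fibrillary acidic protein (Gfap), vimentin (Vim) and nestin (Nes) are its filament proteins. Vimentin and nestin also mark neural progenitors, blood vessel cells and tanycytes, the cells that line the third ventricle of the hypothalamus. Signals through the gp130 family of cytokine receptors, to which the oncostatin M receptor (Osmr) belongs, activate the transcription factor STAT3, a known regulator of Gfap.

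Libraries held between 17208291 and 18884403 counted reads. All 8 hypothalamic peptide genes checked, among them Avp, Oxt, Pmch and Hcrt, were detected in every library. Their levels were not all equal: Avp was at 585 to 622 FPKM in aged and 355 to 408 FPKM in young libraries, Hcrt at 178 to 199 against 275 to 416 FPKM and Agrp at 2.63 to 6.32 against 0.401 to 2.61 FPKM, and the part of such differences in the results below was not tested. All 16 general astrocyte markers were abundant enough to be tested. Reads of 4 Y-linked genes ranged from 3394 to 3617 among aged and from 24 to 32 among young libraries, so the groups differed in Y-linked expression exactly as in age, and the parts of age and sex in every difference below cannot be told apart. In tissue RNA, a change in the number of cells of a type and a change in RNA per cell cannot be told apart either.

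Levels are given as CPM, a gene's reads scaled to a common library size. Changes are log2 ratios of aged to young with a standard error (SE), and genes whose Benjamini-Hochberg adjusted p in edgeR's quasi-likelihood test, taken over all 14702 tested genes, was under 0.05 are said to have passed. Of the 9 genes, 8 were abundant enough to be tested; 3 of them were higher in aged hypothalamus (Serpina3n, Nes and Vim) and 5 did not pass (Gfap, Cd44, Osmr, S1pr3 and Srgn). Over all tested genes 3.22% were higher and 3.64% lower in aged libraries; none of the 8 tested genes of the set was lower. In 4 of the 9 genes (Serpina3n, Nes, Vim and Srgn) every aged library stood above every young library, a pattern found in 15.5% of all tested genes.

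**Figure D1:**
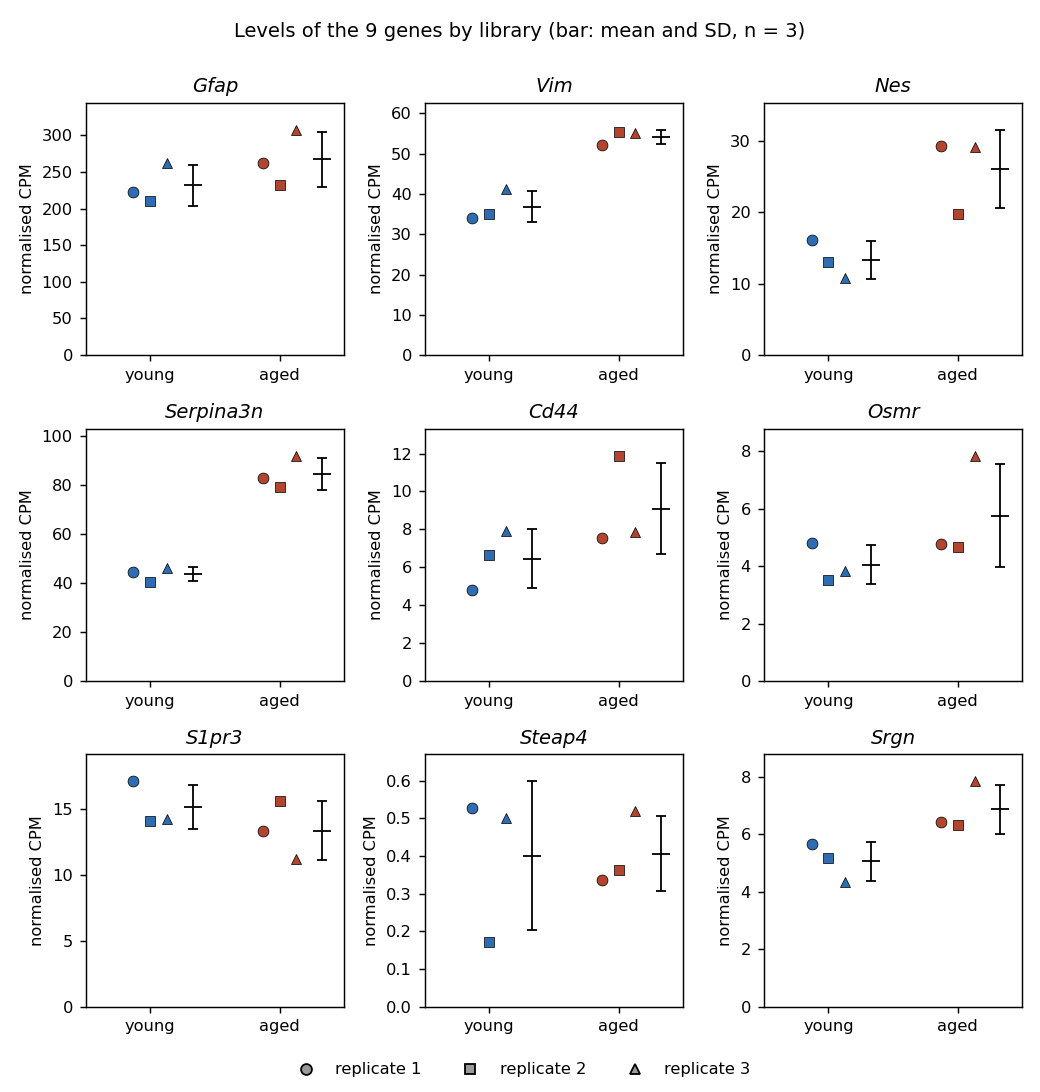
Normalised CPM (y axis, from 0, with its own scale in each panel) of each of the 9 genes in young (blue) and aged (red) libraries, with replicates 1 to 3 as circle, square and triangle and the mean and SD (n = 3) as a black bar. Serpina3n, Vim, Nes and Srgn show no overlap between the groups, whereas the aged and young libraries of the other genes interleave.

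Serpina3n, a secreted serine protease inhibitor that is a widely used marker of reactive astrocytes, showed the clearest difference. Its level was 82.8, 79.4 and 92.1 CPM in aged replicates 1, 2 and 3 and 44.5, 40.6 and 46.2 CPM in young replicates 1, 2 and 3. The lowest aged library was well above the highest young one, and both groups were tight. The means were 84.8 ± 6.57 and 43.8 ± 2.90 CPM (SD, n = 3 each), a log2 fold change of 0.95 ± 0.08 SE (edgeR adjusted p = 0.000514), or 1.94-fold with a 95% confidence interval of 1.71 to 2.19. By raw p-value it ranked 12 among all tested genes. The call held in all 18 alternative analyses, with log2 fold changes of 0.90 to 1.01. Which cells its reads came from was not tested.

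Mouse Serpina3 genes form a cluster of near-identical copies, and reads shared among them could have been divided or dropped in counting. Of 10 other genes of the cluster that were looked for, 5 were in the table, and Serpina3g was the one with enough reads for a test, and its level averaged 1.20 CPM in the aged group and 1.26 CPM in the young group (log2 fold change -0.07 ± 0.27 SE, edgeR adjusted p = 0.892). Serpina3c, Serpina3f, Serpina3i and Serpina3k averaged at most 0.348 CPM in either group. Together with 6 serpins from other clades the list held 7 tested genes. Serpinh1, a collagen chaperone (0.54 ± 0.23), Serpine2, a protease inhibitor made by glia (-0.17 ± 0.08), and Serpinf1 (-0.11 ± 0.08) did not pass. The median log2 fold change of these serpins was 0.09, against -0.00 over all tested genes.

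Vimentin rose by a smaller amount with little spread between aged mice. Vim stood at 52.2, 55.3 and 55.0 CPM in aged replicates 1, 2 and 3 and at 34.2, 35.2 and 41.3 CPM in young replicates 1, 2 and 3. No young library reached the aged range, and young replicate 3 came nearest to it. The log2 fold change was 0.55 ± 0.08 SE (1.47-fold, 95% interval 1.29 to 1.67, edgeR adjusted p = 0.00865), and the call held in all 18 alternatives. Its coefficient of variation was 3.16% among aged libraries, about the 3.19% that read counting alone gives at that depth, and 10.5% among young libraries.

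Nestin, a large filament protein of neural progenitors that partners with vimentin, changed by the largest factor among the 3 filament genes. Nes was at 29.4, 19.7 and 29.1 CPM in aged replicates 1, 2 and 3, against 16.1, 13.1 and 10.8 CPM in young replicates 1, 2 and 3. Aged replicate 2 lay nearer to the young libraries than to the other 2 aged libraries, but still above all of them. The log2 fold change was 0.97 ± 0.18 SE (1.95-fold, 95% interval 1.48 to 2.58, edgeR adjusted p = 0.0178). The call was lost without aged replicate 1 (edgeR adjusted p = 0.0631), aged replicate 3 (0.0723) or young replicate 3 (0.0561), with log2 fold changes of 0.84 to 1.15 over the 6 analyses that leave out 1 library each.

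Gfap, the defining filament of astrocytes, had the highest level of the 9 genes and did not pass. It stood at 261.8, 232.0 and 307.3 CPM in aged replicates 1, 2 and 3 and at 222.4, 209.9 and 262.6 CPM in young replicates 1, 2 and 3. The groups overlapped: young replicate 3 was above aged replicates 1 and 2. With 4468 to 5327 reads in each aged and 3653 to 4720 in each young library, counting alone gives a coefficient of variation of 1.44% and 1.57%, and the measured values were 14.2% and 11.9%, so the libraries differed by more than counting gives. The log2 fold change was 0.21 ± 0.11 SE (edgeR adjusted p = 0.269), and it was 0.10 without aged replicate 3 and 0.31 without young replicate 3. Its 95% interval on the linear scale ran from 0.971 to 1.37-fold, below the lower bounds of the intervals of Nes and Serpina3n.

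**Figure D2:**
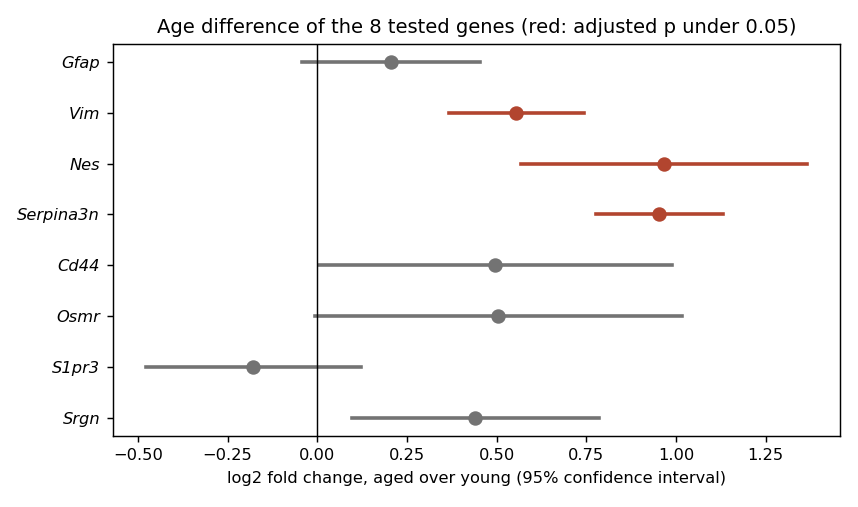
Log2 fold change of aged over young (x axis) with its 95% confidence interval (horizontal line) for the 8 tested genes, in red where the edgeR adjusted p is under 0.05. Serpina3n, Nes and Vim lie to the right of 0 with their whole intervals, Gfap, Osmr and S1pr3 have intervals that cross 0, and those of Cd44 and Srgn end just above 0 without passing after adjustment.

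Proportions among the filament genes were compared next. For levels between genes the deposited FPKM was used, which divides reads by gene length and library total. Per length, Vim was 0.443, 0.530 and 0.398 of Gfap in aged replicates 1, 2 and 3 and 0.341, 0.372 and 0.350 of Gfap in young replicates 1, 2 and 3, with no overlap. Gfap made up 63.2% to 68.7% of the summed FPKM of the 3 filament genes in aged libraries and 70.9% to 72.7% in young libraries. Nestin made up 3.32% to 4.58% in aged and 1.85% to 3.23% in young libraries, also without overlap. The ratio of Nes to Vim overlapped, at 0.156, 0.0992 and 0.147 in aged and 0.131, 0.104 and 0.0727 in young replicates 1, 2 and 3. Serpina3n reached 0.564 to 0.644 of the FPKM of Gfap in aged and 0.331 to 0.376 in young libraries. These ratios are descriptions of 3 libraries a group and were not tested.

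**Figure D3:**
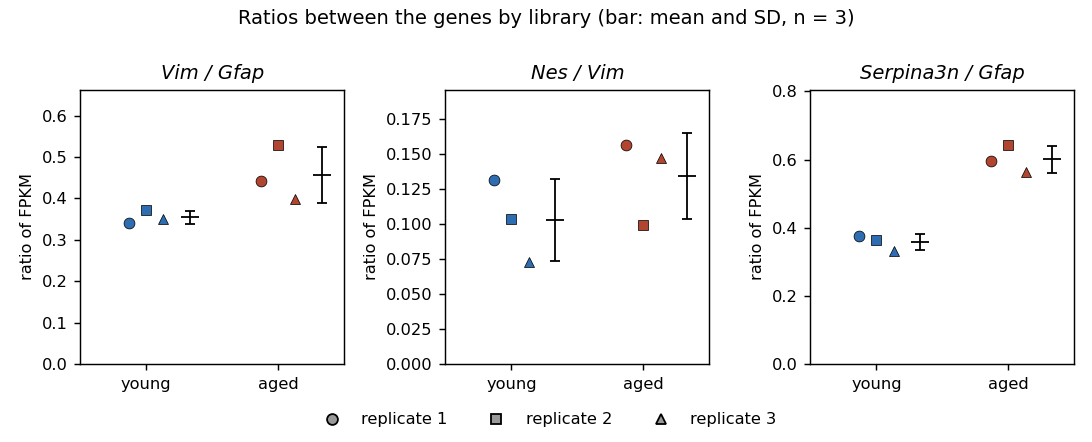
Ratios of FPKM (y axis, from 0) of Vim to Gfap, Nes to Vim and Serpina3n to Gfap in young (blue) and aged (red) libraries, with replicates as circle, square and triangle and the mean and SD (n = 3) as a bar. Ratios to Gfap are separated by age, with 0.398 as the lowest aged and 0.372 as the highest young value for Vim, and the ratio of Nes to Vim is not.

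The order of the genes by level per length was led by Gfap in both groups, at 66.2 ± 9.09 FPKM in aged and 56.3 ± 7.43 FPKM in young libraries (SD, n = 3 each). In young libraries the next genes, Serpina3n (18.4 to 21.4 FPKM) and Vim (18.3 to 22.6 FPKM), could not be ordered. In aged libraries all values of Serpina3n (37.4 to 42.8 FPKM) were above all values of Vim (28.5 to 30.8 FPKM). S1pr3 (3.09 to 3.76 FPKM) stood above Nes (1.64 to 2.41 FPKM) in young libraries, and their ranges overlapped in aged ones (2.51 to 3.55 against 3.05 to 4.47 FPKM). Srgn, Cd44 and Osmr followed at 2.51 ± 0.302, 1.60 ± 0.441 and 1.15 ± 0.357 FPKM in aged libraries, and Steap4 was last at 0.131 ± 0.0316 FPKM.

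Of 14 other intermediate filament and linker genes, all tested, 1 rose and 13 did not pass, with a median log2 fold change of -0.09. The gene that rose was Lmna, which encodes the nuclear lamins A and C (0.39 ± 0.07, edgeR adjusted p = 0.0186; lost in 4 of 18 alternatives). Lmnb2, another nuclear lamin (0.24 ± 0.07), Ina, the neuronal filament alpha-internexin (-0.18 ± 0.05), and Prph, peripherin (0.48 ± 0.17), had edgeR adjusted p of 0.0707, 0.0789 and 0.106. Synm, which encodes synemin, a further filament partner of vimentin in astrocytes, had a log2 fold change of -0.03 ± 0.08 (edgeR adjusted p = 0.843).

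The upstream sequences of the 3 genes that rose and of Gfap are shown so that the start regions of genes that rose can be set beside that of a filament gene that did not pass. The 250 bases before the RefSeq gene start are given 5′ to 3′ on the gene's strand, from RefSeq on GRCm38.p6, a build other than the GRCm39 named for the reads. Windows were found for all 9 genes (10 windows, since Srgn has 2). The motifs searched were 4, each on both strands: the STAT core TTCNNNGAA, the AP-1 site TGANTCA, the TATA box TATAAA and the CCAAT box CCAAT, with no overlap between matches in the windows shown. Capitals mark every match. They lie at chr2:13574061-13574310 (plus strand) for Vim, chr3:87970843-87971092 (plus) for Nes, chr12:104406458-104406707 (plus) for Serpina3n and chr11:102897201-102897450 (minus) for Gfap.
Vim: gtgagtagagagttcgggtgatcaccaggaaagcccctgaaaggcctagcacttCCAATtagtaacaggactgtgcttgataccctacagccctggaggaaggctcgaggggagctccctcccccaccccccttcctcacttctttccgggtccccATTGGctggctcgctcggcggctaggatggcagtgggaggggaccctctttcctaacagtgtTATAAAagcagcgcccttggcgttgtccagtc
Nes: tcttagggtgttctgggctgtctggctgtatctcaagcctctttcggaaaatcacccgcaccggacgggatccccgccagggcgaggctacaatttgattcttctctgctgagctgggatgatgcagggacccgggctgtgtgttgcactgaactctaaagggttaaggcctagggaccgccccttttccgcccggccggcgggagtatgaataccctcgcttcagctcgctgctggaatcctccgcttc
Serpina3n: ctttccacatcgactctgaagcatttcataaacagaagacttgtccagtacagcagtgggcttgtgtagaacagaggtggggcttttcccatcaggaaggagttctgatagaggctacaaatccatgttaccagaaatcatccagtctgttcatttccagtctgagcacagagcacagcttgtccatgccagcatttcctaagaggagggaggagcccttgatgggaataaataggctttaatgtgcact
Gfap: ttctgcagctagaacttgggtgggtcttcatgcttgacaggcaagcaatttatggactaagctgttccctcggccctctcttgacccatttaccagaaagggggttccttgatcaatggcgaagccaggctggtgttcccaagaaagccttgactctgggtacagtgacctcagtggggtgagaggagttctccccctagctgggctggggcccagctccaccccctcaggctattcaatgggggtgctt
Vim held a TATA box 32 bases before the start and CCAAT boxes on both strands, and the windows of Nes, Serpina3n and Gfap held none of the 4 motifs. Over all 32851 windows of this length, 12.4% held the TATA box, 33.8% the CCAAT box, 7.02% the STAT core and 6.75% the AP-1 site. Of the 10 windows of the 9 genes, 1 held the STAT core (Steap4) and 3 the letters TATAAA (Vim, Steap4 and Srgn). The match of Srgn lay 98 bases before the start, and that of Steap4 215 bases before it on the opposite strand. These matches and the shares above count the letters at any position and on either strand. A window without a match says only that these letters are not in these 250 bases.

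Surface receptors of the set did not pass. Cd44, the receptor for the matrix polymer hyaluronan, was at 7.57, 11.9 and 7.85 CPM in aged replicates 1, 2 and 3 and at 4.81, 6.66 and 7.90 CPM in young replicates 1, 2 and 3. Aged replicate 2 stood apart from the rest, and the other 2 aged libraries were below young replicate 3. The log2 fold change was 0.50 ± 0.22 SE (edgeR adjusted p = 0.187) and became 0.26 without aged replicate 2, or 0.33 without young replicate 1. Aged replicate 2 also had the most reads of 12 blood leukocyte markers, 452 in all, against 135 and 213 in aged replicates 1 and 3 and 64 to 80 in young libraries. Ptprc, the common leukocyte antigen, was at 9.86 CPM there and at 4.09 and 5.25 CPM in aged replicates 1 and 3. Ms4a4b, a T cell gene, had 82 reads in aged replicate 2 and 0 to 4 in every other library. Not every marker of the list peaked in that library. S100a8 had 0, 7 and 22 reads and S100a9 8, 13 and 24 reads in aged replicates 1, 2 and 3. Leukocytes also express Cd44, and their part in its level was not tested.

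Osmr, the receptor subunit for oncostatin M, was at 4.76, 4.67 and 7.85 CPM in aged replicates 1, 2 and 3 and at 4.81, 3.50 and 3.84 CPM in young replicates 1, 2 and 3. Aged replicate 3 was high, and aged replicates 1 and 2 lay just below young replicate 1 and above young replicates 2 and 3. The log2 fold change of 0.50 ± 0.23 SE (edgeR adjusted p = 0.196) became 0.23 without aged replicate 3. With 61 to 136 reads a library, counting alone gives a coefficient of variation of 9.82% in aged and 11.9% in young libraries, against a measured 31.4% and 16.7%.

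Aged replicate 3 was also the aged library with the highest Gfap, Serpina3n and Srgn. The values of 3 other genes are given because they too were highest there, a choice made after their values were seen; Cxcl10, of the same pan-reactive list, had its most reads (27) in aged replicate 2, and Clcf1, of the same cytokine list as Socs3, was highest in aged replicate 1. Lcn2, the iron-binding protein lipocalin 2, had 150 reads in aged replicate 3, 3 and 9 in aged replicates 1 and 2 and 3 to 5 in the young libraries. It did not reach the read minimum in enough libraries to be tested. S100a8 and S100a9 of the blood leukocyte list also had their most reads in aged replicate 3, 22 and 24. The part of leukocytes in the level of Lcn2 was not tested. Socs3, the feedback inhibitor of STAT3 signalling, was at 3.76, 4.36 and 7.04 CPM in aged and 2.58, 2.24 and 2.95 CPM in young replicates 1, 2 and 3. Hspb1, a small heat shock protein that binds filaments, was at 20.2, 10.5 and 28.0 CPM in aged and 4.34 to 5.06 CPM in young libraries.

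Of 23 genes of the gp130 cytokines, their receptors and the JAK-STAT3 route, 21 were tested, 1 rose and 20 did not pass, with a median log2 fold change of 0.13. Stat3 rose from 88.8 ± 5.19 to 117 ± 15.6 CPM (SD, n = 3 each), a change of 0.40 ± 0.09 on the log2 scale with an edgeR adjusted p of 0.0382, a call lost in 5 of 18 alternatives, each of them with 1 library left out. Socs3 (0.96 ± 0.25, edgeR adjusted p = 0.0509) and the cytokine Clcf1 (0.93 ± 0.25, 0.0517) did not pass but did so in 7 and 3 of 18 alternatives. Among receptors, Il6st, which encodes gp130 itself, and Lifr, with which oncostatin M can also signal, had log2 fold changes of -0.21 ± 0.09 and -0.12 ± 0.07, and neither passed. The ligands Osm and Il6 had at most 8 and 3 reads in any library and were not tested.

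S1pr3, a receptor for the lipid sphingosine 1-phosphate found on reactive astrocytes and on vessel wall cells, was the gene of the set with a lower mean in aged libraries. Its values were 13.3, 15.6 and 11.2 CPM in aged replicates 1, 2 and 3 and 17.1, 14.1 and 14.3 CPM in young replicates 1, 2 and 3. The groups overlapped, and the log2 fold change of -0.18 ± 0.13 SE did not pass (edgeR adjusted p = 0.435; 95% interval 0.718 to 1.09-fold). Leaving out aged replicate 2, aged replicate 3 or young replicate 1 gave -0.30, -0.06 and -0.08. Markers of pericytes and smooth muscle, which also carry this receptor, were lower: of 10, 3 fell (Pdgfrb, Vtn and Anpep) and 7 did not pass, and their summed FPKM was 51.3 to 63.8 in aged and 71.8 to 82.2 in young libraries. Their part in the level of S1pr3 was not tested. Of 10 other genes of this lipid pathway, 1 fell and 9 did not pass (median log2 fold change 0.07). Plpp3, a lipid phosphatase that breaks down sphingosine 1-phosphate outside the cell, was the gene that fell, by 0.45 on the log2 scale (edgeR adjusted p = 0.0455; lost in 8 of 18 alternatives). Spns2, an exporter of the lipid (0.18 ± 0.06), S1pr5 (-0.21 ± 0.10) and Sgpl1, the lyase that degrades it (0.10 ± 0.07), did not pass.

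Of 13 ligand and linker genes of Cd44, 11 were tested, 1 rose and 10 did not pass, with a median log2 fold change of -0.02. Ezr, which encodes ezrin, the protein that ties Cd44 to actin, rose by 0.57 ± 0.13 (edgeR adjusted p = 0.0308; lost in 5 of 18 alternatives). Spp1, the ligand osteopontin (0.60 ± 0.18), Hyal2, a hyaluronidase (0.29 ± 0.09), and Msn, moesin (0.23 ± 0.08), had edgeR adjusted p of 0.0783, 0.0859 and 0.0890.

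Srgn, the core protein of the granule proteoglycan serglycin in leukocytes and vessel cells, was at 6.45, 6.33 and 7.85 CPM in aged replicates 1, 2 and 3 and at 5.68, 5.17 and 4.34 CPM in young replicates 1, 2 and 3. The groups did not overlap, yet the gap between them was small and each library had only 78 to 136 reads. The log2 fold change was 0.44 ± 0.15 SE (edgeR adjusted p = 0.108), and it did not pass in any of 18 alternatives. Of 12 markers listed for blood leukocytes, 3 were tested and 2 rose, Ptprc and Cd52. Summed FPKM of the 12 was 7.01 to 20.7 in aged and 3.19 to 4.49 in young libraries. Cd52 alone was at 4.69, 9.05 and 5.78 FPKM in aged and 2.52, 2.24 and 1.66 FPKM in young replicates 1, 2 and 3. Cd3e, Cd3g and Nkg7, which define T cells and natural killer cells, were at 0 in aged replicate 1. Whether reads of Ptprc and Cd52 came from blood cells or from microglia was not tested. Aged replicate 2, with the most leukocyte reads, had the lowest Srgn of the aged libraries; the part of leukocytes in its level was not tested.

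Steap4, a metalloreductase that takes up iron and copper, was near the limit of detection. It had 6, 7 and 9 reads in aged replicates 1, 2 and 3 and 9, 3 and 9 reads in young replicates 1, 2 and 3, 22 and 21 reads in all. These totals correspond to 0.404 CPM (95% exact Poisson interval 0.253 to 0.612, for counting error only) and 0.400 CPM (0.248 to 0.612). It did not reach the read minimum for the test; fitted without that filter, its log2 fold change was 0.02 ± 0.50 SE (edgeR adjusted p = 0.992), an error too wide to show a small difference. Of 10 other genes of the STEAP family and of iron handling, 8 were tested, 2 fell and 6 did not pass (median log2 fold change -0.13). Slc40a1, the iron exporter ferroportin, fell by 0.83 (edgeR adjusted p = 0.0248; lost in 5 of 18 alternatives) and Tfrc, the transferrin receptor, by 0.46 (edgeR adjusted p = 0.0376; lost in 8 of 18). Steap2 (-0.26 ± 0.08) and Steap3 (-0.40 ± 0.12) had edgeR adjusted p of 0.0692 and 0.0782.

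Some general astrocyte markers fell. Of 16, 6 (Sox9, Aqp4, Atp1b2, Ntsr2, Slc4a4 and Slc1a2) fell and 10 did not pass, with a median log2 fold change of -0.26 and a summed FPKM of 1601 to 2043 in aged and 2054 to 2190 in young libraries. Aqp4, the water channel of astrocyte endfeet, was at 103, 81.1 and 113 CPM in aged replicates 1, 2 and 3 and at 149.8 to 172 CPM in young libraries. The mean log2 CPM of the 16 markers was 7.98, 7.60 and 8.03 in aged and 8.25, 8.17 and 8.18 in young replicates 1, 2 and 3, lowest in aged replicate 2.

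Set against that mean, Gfap no longer overlapped: its log2 CPM less the markers' mean was 0.05, 0.26 and 0.23 in aged and -0.46, -0.46 and -0.14 in young replicates 1, 2 and 3, a difference of 0.53 between the group means. Nes and Serpina3n differed by 1.29 and 1.28, Vim by 0.89, Cd44 by 0.82, Osmr by 0.80 and Srgn by 0.77 on this scale, and S1pr3 overlapped (0.14). Without aged replicate 2 the difference of Cd44 was 0.48. In all, 7 of the 8 tested genes had every aged library above every young one. Because the markers were lower in aged libraries, 53.0% of all other tested genes also did so, and the count is to be read against that share.

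**Figure D4:**
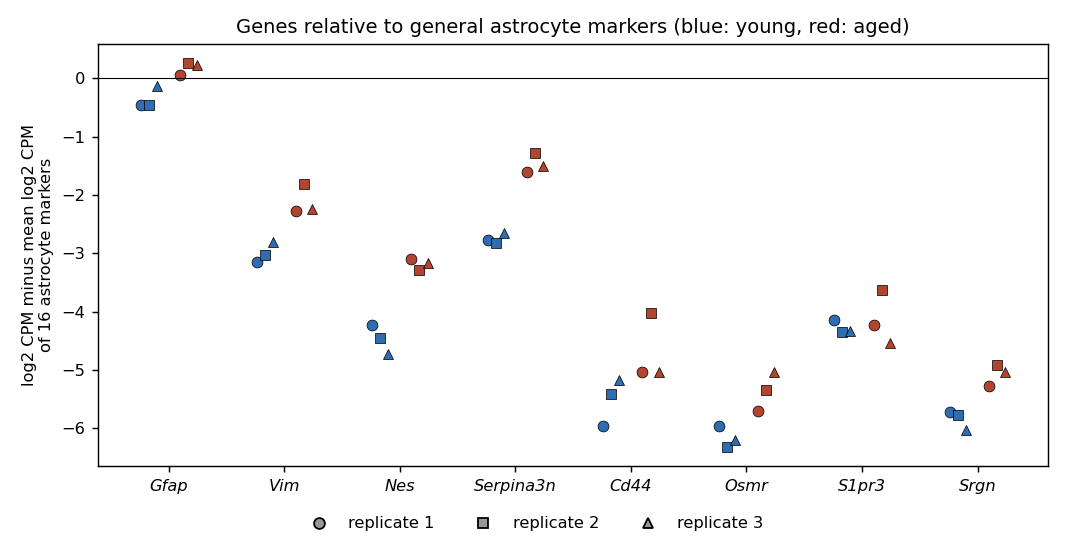
Log2 CPM of each tested gene minus the mean log2 CPM of 16 general astrocyte markers (y axis) in young (blue) and aged (red) libraries, with replicates 1 to 3 as circle, square and triangle. Aged libraries lie above young ones for every gene shown except S1pr3, and Gfap changes sides of 0, from -0.46 to -0.14 in young to 0.05 to 0.26 in aged libraries.

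Vim and Nes also mark tanycytes. Of 10 tanycyte markers, 3 rose (Rax, a transcription factor, by 1.35 ± 0.32, Col23a1 by 0.72 ± 0.17 and Gpr50, an orphan receptor, by 0.49 ± 0.09) and 7 did not pass. Their summed FPKM was 43.0, 35.2 and 36.5 in aged and 15.6, 33.1 and 22.6 in young replicates 1, 2 and 3. Young replicate 1, with the lowest sum, had the highest Nes and the lowest Vim of the young libraries. The part of tanycytes in the levels of Vim and Nes was not tested.

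Markers of other cells that can carry these genes were as follows. Of 10 microglia markers, 2 rose (C1qa and Trem2), 1 fell (P2ry12) and 7 did not pass (summed FPKM 158 to 181 in aged and 142 to 143 in young libraries). Of 10 endothelial markers, 1 rose (Slc2a1), 3 fell (Cldn5, Tek and Kdr) and 6 did not pass (158 to 172 against 126 to 149). The higher aged sum rested on Slc2a1: the other 9 summed to 74.4, 94.8 and 88.4 FPKM in aged and 103.2, 88.5 and 95.1 FPKM in young replicates 1, 2 and 3, a sum without that gene that was chosen after seeing the data. Of 10 fibroblast markers 4 fell (27.7 to 28.3 against 32.3 to 35.3), and of 10 markers of oligodendrocyte precursors 3 fell (156 to 174 against 186 to 217). In edgeR no gene passed among 10 ependymal markers and 3 tested markers of perivascular macrophages, where 0 and 0 had an unadjusted p under 0.05 and 0 and 0 passed in DESeq2. No marker of these lists was at 0 in every library.

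Other genes of published reactive astrocyte signatures, which share some members with the set, rose in part. Of the 13 pan-reactive genes, 7 belong to the set; of the other 6, 3 were tested, and Hspb1 (2.08 ± 0.31, edgeR adjusted p = 0.00844) and Aspg (0.66 ± 0.17, edgeR adjusted p = 0.0484; lost in 7 of 18 alternatives) rose. Cp, the copper oxidase ceruloplasmin, had a log2 fold change of 0.10 ± 0.14 (edgeR adjusted p = 0.683). Of 10 further genes of the signature called A1, all tested, 4 rose and 6 did not pass (median log2 fold change 0.33). They were H2-D1, an MHC class I gene (0.67 ± 0.08), Fkbp5, a chaperone induced by glucocorticoids (1.01 ± 0.13), Psmb8, a subunit of the immunoproteasome (1.10 ± 0.21), and Fbln5, an elastic fibre protein (0.57 ± 0.11), with edgeR adjusted p of 0.00453, 0.00468, 0.0205 and 0.0216; the last 2 calls were lost in 3 and 4 of 18 alternatives. Of 12 genes of the signature called A2, 9 were tested, 2 rose and 7 did not pass (median 0.21). Emp1 (0.97 ± 0.21) and Cd109 (0.79 ± 0.20), both membrane proteins, rose, with calls lost in 5 and 8 of 18 alternatives, and Clcf1 and Cd14 (0.73 ± 0.22, edgeR adjusted p = 0.0756) did not pass.

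Acute stress genes, a list chosen with earlier results of these data known, were higher as well: of 14, 11 rose and 3 did not pass, with a median log2 fold change of 1.69. Atf3 (3.75 ± 0.30), Sgk1 (2.26 ± 0.18), Fosb (1.70 ± 0.18) and Maff (3.25 ± 0.37), a kinase and 3 transcription factors, had the smallest p-values. Their summed FPKM was 317, 275 and 453 in aged and 133, 163 and 128 in young replicates 1, 2 and 3, highest in aged replicate 3. Gfap, Serpina3n, Osmr and Srgn also peaked in that library, whereas Nes, Vim and Cd44 peaked in aged replicates 1 or 2; among young libraries the stress sum was highest in replicate 2, where Gfap, Serpina3n and Osmr were lowest. Their relation to the levels of the 9 genes was not tested. Over the 10 lists of related genes, 103 genes outside the set were tested, of which 23 were higher and 3 lower. Of the 23 higher genes, 11 belong to the acute stress list. Over all tested genes 6.86% were called in either direction. Because the 10 lists were chosen with earlier results of these data known, the counts are no test against that share.

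**Figure D5:**
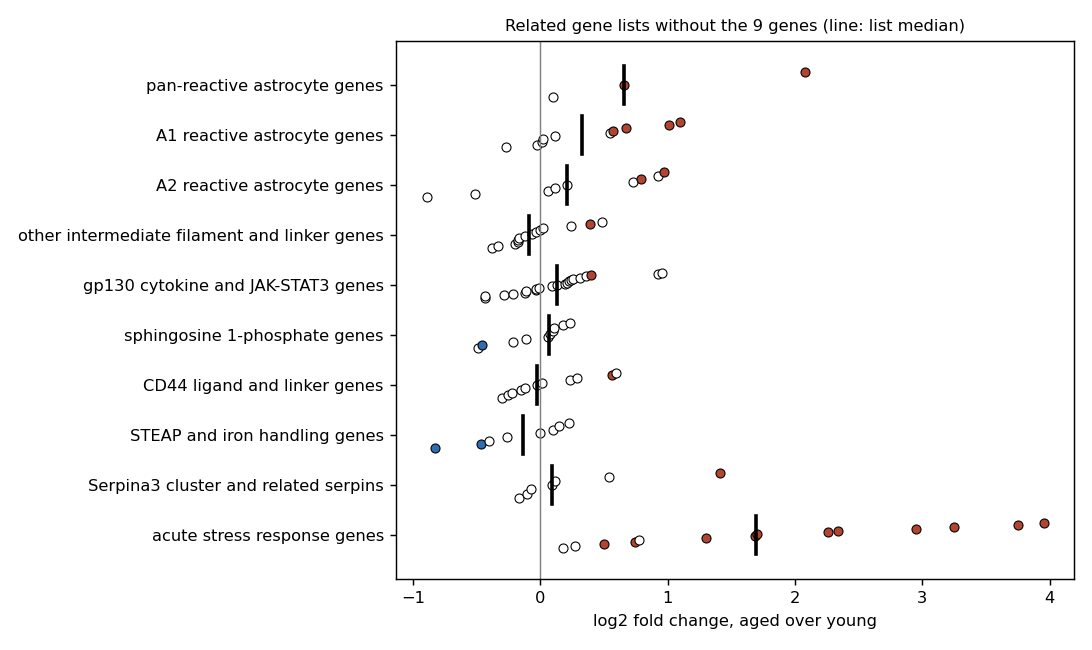
Log2 fold change of aged over young (x axis) for the tested genes of 10 related lists without the 9 genes, 1 point a gene, red where higher and blue where lower at an edgeR adjusted p under 0.05, white otherwise, with the list median as a black line. Acute stress genes lie furthest to the right (median 1.69), while the other filament genes and the Cd44, sphingosine and STEAP lists centre near 0.

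The genes whose log2 CPM followed each leading gene most closely over the 6 libraries were, for Serpina3n, Mtarc2, Nectin2 and Akirin1 (Pearson r 0.996, 0.995 and 0.993), for Vim, Asb4, Ppid and Mesd (0.998, 0.996 and 0.993) and, for Gfap, Nfx1, Mbtd1 and Adam17 (0.991, 0.981 and 0.977). They were the highest among 9233 candidate genes, so high values arise in part from the search, and the 6 points share 2 age groups. Of these 9 genes Asb4 passed the test between the ages (log2 fold change 0.52, edgeR adjusted p = 0.0133).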

How the data were processed

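RNA of hypothalamus from 6 mice was sequenced; per the labels' protocols, the library kit was Illumina's TruSeq Stranded mRNA. The authors deposited whole-number read counts per gene, not normalized, and FPKM for the same 18228 genes; FPKM equalled count over a gene length and the library total within a relative tolerance of 1e-06 for all 18228. The submitters' processing notes name Trimmomatic, HISAT2, Cufflinks, HTSeq, DESeq and the build GRCm39; annotation version and strand setting: not given in the sources used here.

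Counts were tested with edgeR 4.0.16 (R 4.3.3): filterByExpr (minimum count 10, minimum total 15; 14702 genes kept with 99.9% of counts), TMM factors, glmQLFit and glmQLFTest, aged against young, 3 libraries each, with Benjamini-Hochberg adjustment over all tested genes. SE is the size of the log2 fold change over the root of the F statistic. Intervals are at 95%. The scripts were tested on simulated data. Alternatives were other scalings and filters, DESeq2 1.42.0, limma 3.58.1 (voom on counts, trend on log2(FPKM + 1) or with 0.1 added), robust dispersion, removal of a gene length trend, a replicate block and leaving out each library.

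The 9 genes and the 20 lists (10 of related genes, 10 of cell type markers) were chosen with earlier results of these data known. Named are the 9 genes, up to 4 tested genes of each related list with the smallest p, markers whose values stand beside a gene, and the 3 genes (mean log2 CPM of at least 4) most correlated with Gfap, Vim and Serpina3n. Genes named outside this rule (Serpina3g, Serpina3c, Serpina3f, Serpina3i, Serpina3k, Synm, Il6st, Lifr, Osm, Il6, Cxcl10 and Lcn2) were added after the data were seen. Some genes that the rule names are not reported here.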

Additional observations from a re-analysis of the deposited data

How the results depend on the processing

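Serpina3n and Vim passed in all 18 alternatives run (other scalings, filters, tools, length correction, replicate block and each library left out). The highest adjusted p were 0.00482 and 0.0476. Nes lost its call in 3 of them, each with 1 library left out, as given above; Cd44, Osmr, S1pr3 and Srgn passed in none, and no tested gene of the 9 changed direction. The number of the 9 that passed was 3, and 2 to 3 with a library left out. Deviations of same-numbered libraries correlated at 0.095, 0.037 and -0.138, and not every library correlated best with its own number. With 3 libraries a group, these values cannot decide whether shared replicate numbers pair the mice. With a replicate block the count was 4, Gfap being added (log2 fold change 0.20, edgeR adjusted p = 0.0482), and the genes called numbered 1190. Genes called over the whole table numbered 1009, and 150 to 1633 with 1 library left out, where each of the 6 libraries moved the count by over 1.5 times: without aged replicate 1 there were 244, without aged 2 1633, without aged 3 150, without young 1 262, without young 2 579 and without young 3 396. Genes higher in aged numbered 474 (95 to 901 with a library left out) and genes lower 535 (55 to 732, and 293 with limma on log2(FPKM + 1), 303 on log2(FPKM + 0.1) and 346 with the length trend removed). The 26 related genes called became 12 to 32, with the fewest without aged replicate 3 or young replicate 1. Cp ranged from -0.0117 (without young replicate 3) to 0.25 (without young replicate 1) with a library left out. The difference of S1pr3 relative to astrocyte markers ranged from -0.11 (without aged replicate 2) to 0.35 (without aged replicate 3); alternatives for that measure were chosen after seeing the data. The cause of these shifts was not tested. Counting alone gave Steap4 a coefficient of variation of 36.9% in aged and 37.8% in young libraries, whereas for Cd44 the measured 26.6% and 24.1% exceeded the 7.75% and 9.39% from counting.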
